A study of Mus musculus with 6 samples.

Results

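The genes described here encode 10 receptor chains through which group 2 innate lymphoid cells (ILC2s) sense alarmins and related cytokines. They are Il1rl1 and Il1rap (IL-33), Il17rb and Il17ra (IL-25), Crlf2 and Il7r (TSLP), Il18r1 and Il18rap (IL-18), and Il1r1 with the decoy Il1r2 (IL-1). They were chosen by gene symbol, and all 10 were found among the 25865 genes of the deposited table. The cells were ILC2s sorted from C57BL/6 mouse large intestine and kept in culture for 5 days with 10 ng/mL each of IL-33, IL-25, IL-7 and IL-2. One group of 3 samples then received toyocamycin, an adenosine analogue, for 16 h, and the Control group of 3 samples received vehicle. Both groups had therefore been exposed to IL-33, IL-25 and IL-7, which are ligands of receptors described here. The sources used here give neither the dose nor the vehicle nor the age and sex of the mice, and nothing states that replicates were separate cultures or animals. The p-values then rest on a spread between samples that may be only technical.

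Alarmins are cytokines that epithelial and stromal cells release when a barrier is damaged. IL-33 binds ST2, the product of Il1rl1, which pairs with the accessory protein IL-1RAcP (Il1rap) and signals through MyD88, IRAK kinases and TRAF6. IL-25 binds IL-17RB, which pairs with IL-17RA and signals through the adaptor Act1 (Traf3ip2). TSLP binds the product of Crlf2, which pairs with the IL-7 receptor alpha chain (Il7r) and signals through JAK1, JAK2 and STAT5. IL-18 binds IL-18R1, which pairs with the accessory chain IL-18RAP. IL-1 signals through IL-1R1 with the same accessory protein as IL-33, whereas IL-1R2 binds IL-1 without signalling.

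Values are normalised read counts, that is, whole reads scaled by a factor common to all genes of a sample. The libraries held 22.3 to 36.7 M reads, and 3 reads, taken as the smallest detectable level, equal 2.54 to 3.96 normalised reads depending on the library. A gene was called changed where the Benjamini-Hochberg adjusted p of a limma model on log2(value + 1) over 16223 genes was under 0.05. All 16 genes of the ILC2 marker list were detected, with a summed level of 584622 to 600054 in Control and 492332 to 533110 in toyocamycin. The list includes Il1rl1, Il7r and Il17rb. Without Il1rl1, its most abundant gene, it summed to 481348 to 495842 in Control and 368658 to 401821 in toyocamycin. Of the 16 markers 6 rose and 9 fell (median log2 change −0.23), against 32.8% and 33.1% of all genes tested. With equal totals 5 were higher and 11 lower, against 24.9% and 42.5% of all genes. Among those that fell, named after their values were seen, were the cytokine genes Il13 (88695 to 12757 normalised reads, log2 change −2.80) and Il5 (101461 to 59663, −0.77) and the arginase gene Arg1 (502.5 to 98.6, −2.35). Gata3, a transcription factor that ILC2s require, rose by 1.01 (SE 0.058, limma adjusted p = 1.43e-12) on the log2 scale, and Rora, another such factor, rose by 3.71 (SE 0.060, limma adjusted p = 1.58e-20). Mast cells and basophils can also carry ST2. Of their 11 markers 4 were detected, and Fcer1a was at 0 reads in all 6 samples. Kit, the list's most abundant gene, rose from 29819 to 44484 normalised reads (log2 change 0.58). Without Kit the list summed to 59.7 to 75.2 in Control and 44.9 to 58.3 in toyocamycin. T cells carry Il7r, and 7 of their 10 markers were detected. Cd28, the most abundant of them, rose from 4298 to 13134 normalised reads (log2 change 1.61). Without Cd28 the list summed to 268.6 to 322.1 in Control and 287.8 to 343 in toyocamycin. Which cells held the Kit and Cd28 RNA was not tested. In bulk RNA, fewer cells of a type and less RNA per cell cannot be told apart.

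Among the 10 receptor genes, 5 rose with toyocamycin (Il1rl1, Il1rap, Il17ra, Crlf2 and Il18rap), 4 fell (Il17rb, Il7r, Il18r1 and Il1r2) and Il1r1 did not pass the test. The treatment moved much of the transcriptome: 32.8% of all genes tested were called higher and 33.1% lower, so a call in itself does not set the receptors apart. In 5 of the 10 the called change was at least 1 on the log2 scale, against 37.5% of all genes tested. The lowest and highest samples of the groups did not overlap for any of the 10, which held for 69.1% of all genes. The median log2 change was 0.34 over the receptor genes and −0.03 over all genes. Chains of the TSLP and IL-18 receptors were called in opposite directions under every alternative run. Those of the IL-33 receptor were both called higher and those of the IL-25 receptor in opposite directions under the deposited scaling, but the calls of Il1rl1, Il17ra and Il17rb changed with other scalings. The abundance order of the chains differed between the groups.

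**Figure D1:**
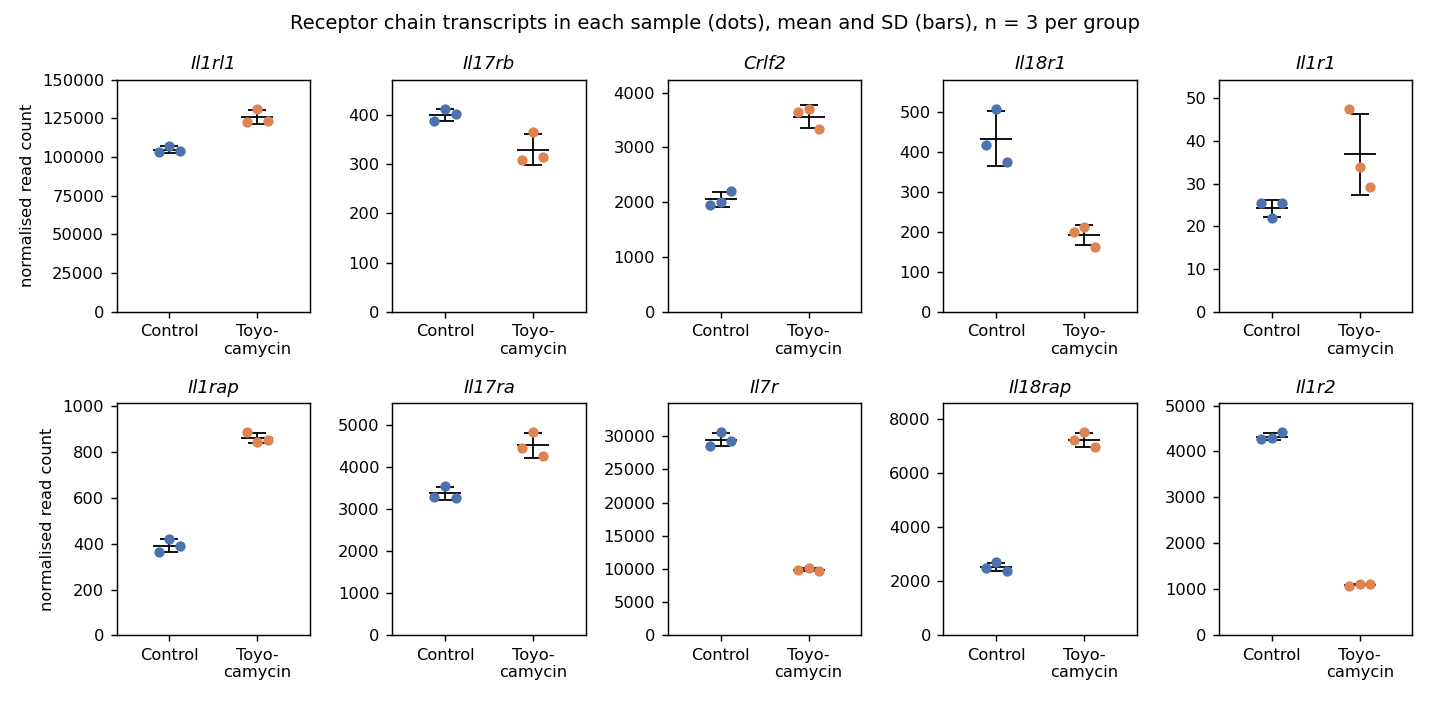
Normalised read count of each receptor gene (vertical axes, each from 0) in the 3 Control and the 3 toyocamycin samples; points are samples and bars are the mean and SD. The sample ranges of the groups are separate for every gene, with the largest difference as a fold of the means for Il1r2 (4323 against 1106) and a small one for Il17rb (400.5 against 329.4).

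For the IL-33 receptor, the ligand-binding chain rose little and the accessory chain rose more. Il1rl1 (GRCm38 chromosome 1, 40429570 to 40465415, plus strand) had 103275, 107172 and 104212 normalised reads in Control and 123026, 131288 and 123674 in toyocamycin. All 3 treated samples were above all Control samples. The means were 104886 ± 2034 and 125996 ± 4594 (SD, n = 3 each), which is 1.20-fold higher with toyocamycin (log2 change 0.26, SE 0.057, limma adjusted p = 0.000313). Il1rl1 ranked between 22 and 25 of 15595 genes in normalised reads per kilobase in all 6 samples. The direction of this small change depends on the scaling. When every library was scaled to the same total, Il1rl1 was called lower (log2 change −0.09, limma adjusted p = 0.00682), with 4474 ± 50.2 reads per 1 M reads in Control and 4217 ± 39.8 in toyocamycin (SD, n = 3 each). That scaling moved the median of all genes from −0.03 to −0.36, a shift that all genes share. Relative to the median of all genes Il1rl1 stood at 0.29 with the deposited scaling and 0.27 with equal totals. It stood at −0.01 with the correction for GC content and length and at −0.03 with quantile normalisation, and neither called it. Quantile normalisation could not show a change of Il1rl1, because it gives the same value to the same rank and Il1rl1 ranked 6th by reads in every sample.

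Il1rap (chromosome 16, 26581704 to 26730117, plus strand) had 365.2, 419.5 and 388.8 normalised reads in Control and 884.8, 842.7 and 849.95 in toyocamycin. Every treated sample was more than 2 times the highest Control sample. The means were 391.2 ± 27.3 and 859.1 ± 22.5 (SD, n = 3 each), 2.20-fold higher with toyocamycin (log2 change 1.14, SE 0.091, limma adjusted p = 3.46e-10), and the call held under all 16 alternatives run. The ratio of Il1rl1 to Il1rap per kilobase was 443 ± 22.6 in Control and 242 ± 13.9 in toyocamycin (SD, n = 3 each). ST2 RNA thus remained far above that of its accessory chain in every sample. Reads per gene do not separate the membrane and the soluble form of ST2, which can start from different promoters of Il1rl1.

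Windows before 4 RefSeq starts, whose use by the measured RNA was not tested, are shown from 3 receptor genes called higher under the deposited scaling. They lie before the distal and proximal starts of Il1rl1, before Il18rap, downstream of Il1rl1 on the same strand, and before Crlf2 of the TSLP receptor. Each runs 5′ to 3′ on the gene's strand and ends just before the start (RefSeq, GRCm38.p6), with the last 2 bases of the proximal Il1rl1 window, which are annotated as exon, left out. They are chr1:40429320-40429569 (plus) and chr1:40439379-40439626 (plus) for Il1rl1, chr1:40515112-40515361 (plus) for Il18rap and chr5:109558994-109559243 (minus) for Crlf2. Capitals mark the letters AGATAA, which factors such as Gata3 bind, or the letters AGGTCA, which factors such as Rora bind, or their reverse complements.
Il1rl1 distal: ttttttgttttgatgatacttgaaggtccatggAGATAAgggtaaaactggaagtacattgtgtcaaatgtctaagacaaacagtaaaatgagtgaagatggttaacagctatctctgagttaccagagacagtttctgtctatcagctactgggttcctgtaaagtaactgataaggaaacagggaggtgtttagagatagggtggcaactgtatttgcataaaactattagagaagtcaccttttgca
Il1rl1 proximal: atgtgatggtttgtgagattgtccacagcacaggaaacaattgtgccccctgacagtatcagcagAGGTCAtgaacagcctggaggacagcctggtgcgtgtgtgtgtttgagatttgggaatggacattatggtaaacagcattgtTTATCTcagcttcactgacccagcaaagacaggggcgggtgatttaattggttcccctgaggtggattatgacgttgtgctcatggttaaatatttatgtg
Il18rap: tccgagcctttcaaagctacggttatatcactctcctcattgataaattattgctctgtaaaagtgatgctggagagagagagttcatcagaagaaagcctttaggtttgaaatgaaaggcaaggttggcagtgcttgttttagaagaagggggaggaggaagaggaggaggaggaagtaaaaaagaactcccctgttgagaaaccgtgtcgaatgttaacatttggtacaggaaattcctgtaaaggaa
Crlf2: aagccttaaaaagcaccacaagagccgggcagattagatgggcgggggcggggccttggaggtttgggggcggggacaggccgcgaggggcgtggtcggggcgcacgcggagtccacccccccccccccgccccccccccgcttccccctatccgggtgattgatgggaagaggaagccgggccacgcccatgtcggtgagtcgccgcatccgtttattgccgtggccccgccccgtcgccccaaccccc
RefSeq windows were found for 9 of the 10 receptor genes, 13 windows of 250 bases in all. They were searched on both strands for these motifs and for TTCNNNGAA (a STAT site) and TGANTCA (an AP-1 site). The distal Il1rl1 window held AGATAA starting 217 bases before the start. The proximal one held it in reverse 103 bases before the start and AGGTCA 185 bases before the start. TTCNNNGAA stood 142 bases before the start of Il7r, 111 bases before that of Il1r2, and 219 and 152 bases before 1 start of Il18r1, and TGANTCA stood 104 bases before that of Il17rb. Annotated exons cover part of these windows, which are therefore not shown. They cover 86 of 250 bases for Il7r, 117 for Il1r2, 91 for this Il18r1 window and 124 for Il17rb. None of the 4 motifs, taken as exactly these letters, was in the windows shown for Il18rap and Crlf2. Close variants were neither searched nor marked, such as TGATAA, which occurs in the Il18rap and the distal Il1rl1 windows. Over all 32851 such windows of the genome, AGATAA was in 9.99%, AGGTCA in 14.02%, TTCNNNGAA in 7.02% and TGANTCA in 6.75%. A match gives only where these letters occur, and no binding was measured here.

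For the IL-25 receptor, the ligand-specific chain was lower and the shared chain higher. Il17rb (chromosome 14, 29996135 to 30008896, minus strand) had 387.8, 412.5 and 401.1 normalised reads in Control and 307.7, 365.9 and 314.5 in toyocamycin. The treated samples were under all Control samples, with treated replicate 2 closest to them. The means were 400.5 ± 12.4 and 329.4 ± 31.8 (SD, n = 3 each), 1.22-fold lower with toyocamycin (log2 change −0.29, SE 0.11, limma adjusted p = 0.0321). The call is weak: it was lost under 8 of 16 alternatives, among them DESeq2 (−0.27, adjusted p = 0.0751) and leaving out any 1 of 5 samples, with limma adjusted p-values of 0.0514 to 0.101. Quantile normalisation turned its sign (0.07, limma adjusted p = 0.554). It shares 141 exon bases with Actr8 on the opposite strand, which had 792.8 ± 90.1 normalised reads in Control and 675.6 ± 20.6 in toyocamycin. The sources used here do not say whether counting used strand, and the part of shared reads in the Il17rb value was not tested.

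Il17ra (chromosome 6, 120463247 to 120487559, plus strand), the chain that IL-25 receptors share with those for IL-17A and IL-17F, had 3287, 3547 and 3262 normalised reads in Control and 4453, 4814 and 4246 in toyocamycin. All treated samples were above all Control samples. The means were 3366 ± 158 and 4504 ± 287 (SD, n = 3 each), 1.34-fold higher (log2 change 0.42, SE 0.058, limma adjusted p = 1.73e-06). With equal totals the change was 0.07 (limma adjusted p = 0.165) and with quantile normalisation −0.05 (limma adjusted p = 0.359). The correction for GC content and length gave 0.67 (limma adjusted p = 9.84e-09), and 14 of 16 alternatives called Il17ra higher. The call of Il17ra thus depends on the scaling, and its sign turned only with quantile normalisation. Within a sample, where a scaling factor cancels, Il17ra exceeded Il17rb per kilobase by 3.60-fold in Control and by 5.87-fold in toyocamycin. Quantile normalisation is not a single factor and does not cancel in this ratio. With it the signs of both chains turned (0.07 for Il17rb and −0.05 for Il17ra, neither called).

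The TSLP receptor showed the opposite pattern between chains, with the ligand-specific chain higher and the shared chain lower. Crlf2 (chromosome 5, 109554709 to 109558993, minus strand) had 1940, 2005 and 2213 normalised reads in Control and 3650, 3706 and 3328 in toyocamycin. The lowest treated sample was well above the highest Control sample. The means were 2052 ± 143 and 3561 ± 204 (SD, n = 3 each), 1.74-fold higher (log2 change 0.80, SE 0.063, limma adjusted p = 3.34e-10), with a range of 0.41 to 0.91 over 16 alternatives.

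Il7r (chromosome 15, 9505788 to 9530176, minus strand), which forms the receptor for IL-7 with the common gamma chain and that for TSLP with the product of Crlf2, had 28539, 30561 and 29313 normalised reads in Control. It had 9833, 10111 and 9685 in toyocamycin, close to each other and far under every Control sample. The means were 29471 ± 1020 and 9876 ± 217 (SD, n = 3 each), 2.98-fold lower with toyocamycin (log2 change −1.58, SE 0.049, limma adjusted p = 6.29e-17). By reads per kilobase it went from rank 85 to 96 of 15595 genes in the Control samples to rank 532 to 554 in the treated ones. Per kilobase, Crlf2 stood at 0.217 ± 0.016 of the Il7r level in Control and at 1.12 ± 0.046 in toyocamycin (SD, n = 3 each). Il7r was thus the more abundant of the pair in every Control sample and Crlf2 in every treated sample.

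**Figure D2:**
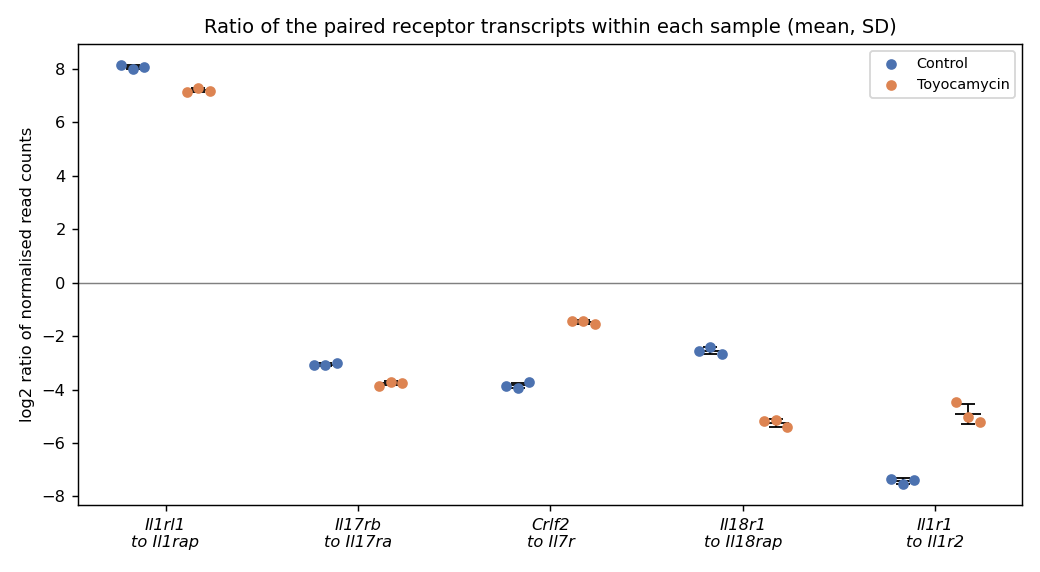
Log2 ratio of paired receptor chains (vertical axis, normalised reads of the chain named before "to" over those of the other) in each Control and toyocamycin sample; points are samples and bars are the mean and SD. Crlf2 to Il7r and Il1r1 to Il1r2 are higher in all 3 treated samples, and the other ratios are lower in all 3.

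The IL-18 receptor chains changed in opposite directions. Il18r1 (chromosome 1, 40465552 to 40500854, plus strand), the chain that binds IL-18, had 416.8, 507.3 and 373.9 normalised reads in Control and 198.1, 210.9 and 162.7 in toyocamycin. The replicates spread more than for the other called receptor genes, yet each treated sample was well under each Control sample. The means were 432.7 ± 68.1 and 190.6 ± 25.0 (SD, n = 3 each), 2.27-fold lower with toyocamycin (log2 change −1.18, SE 0.14, limma adjusted p = 2.37e-07). Il18rap (chromosome 1, 40515362 to 40551705, plus strand), the accessory chain that signalling requires, had 2484, 2700 and 2392 normalised reads in Control and 7197, 7493 and 6957 in toyocamycin. All treated values were more than 2 times any Control value. The means were 2525 ± 159 and 7216 ± 269 (SD, n = 3 each), 2.86-fold higher (log2 change 1.52, SE 0.057, limma adjusted p = 1.24e-15). Both calls held under all 16 alternatives. Per kilobase, Il18rap exceeded Il18r1 by 4.20-fold in Control and by 27.3 ± 2.83-fold in toyocamycin (SD, n = 3).

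For IL-1, the decoy receptor fell and the signalling receptor had few reads and did not pass the test. Il1r2 (chromosome 1, 40074079 to 40125231, plus strand) had 4263, 4291 and 4415 normalised reads in Control and 1083, 1120 and 1115 in toyocamycin. The replicates of each group lay close together and the groups far apart. The means were 4323 ± 80.7 and 1106 ± 20.2 (SD, n = 3 each), 3.91-fold lower with toyocamycin (log2 change −1.97, SE 0.057, limma adjusted p = 2.44e-17), which was the largest fold among the 10 receptor genes under the deposited scaling. Il1r1 (chromosome 1, 40225080 to 40317257, plus strand) rested on 24 to 40 reads per library. It had 25.4, 21.9 and 25.5 normalised reads in Control and 47.5, 33.9 and 29.1 in toyocamycin, with the lowest treated sample not far above the highest Control sample. The log2 change of 0.56 (SE 0.37, 95% interval −0.22 to 1.34, limma adjusted p = 0.201) did not pass the test, and the interval is wide. Of 16 alternatives 1 called Il1r1 higher, quantile normalisation (0.90, limma adjusted p = 0.0421). Per kilobase the decoy exceeded the signalling receptor by 597 ± 48.6-fold in Control and by 104.6 ± 26.3-fold in toyocamycin (SD, n = 3 each).

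The ratio of 2 chains within a sample does not depend on the size factor of the sample. It can depend on quantile normalisation, under which the ratios were not recomputed and both Il17rb and Il17ra turned sign. The log2 ratio changed from Control to toyocamycin by −0.87 for Il1rl1 to Il1rap, by −0.70 for Il17rb to Il17ra and by −2.69 for Il18r1 to Il18rap. It changed by 2.37 for Crlf2 to Il7r and by 2.52 for Il1r1 to Il1r2. As linear ratios these differences are 1.83-fold, 1.63-fold, 6.46-fold, 5.18-fold and 5.75-fold. The groups did not overlap for any of the 5 ratios. Each gave p = 0.1 in an exact two-sided permutation test over the samples, 0.1 after adjustment over the 5 ratios, which is the smallest value that 3 against 3 samples allow, so this test could not pass the threshold. The ratio with Il1r1 rests on the few reads of that gene.

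In normalised reads per kilobase of exon, the Control order was Il1rl1 (15214 ± 295), Il7r (6320 ± 219), Il1r2 (2266 ± 42.3), Crlf2 (1373 ± 95.3), Il17ra (388.6 ± 18.2), Il18rap (374 ± 23.5), Il17rb (108 ± 3.33), Il18r1 (89.8 ± 14.1), Il1rap (34.4 ± 2.40) and Il1r1 (3.81 ± 0.31; SD, n = 3). In that order the sample ranges of Il17ra and Il18rap overlapped, as did those of Il17rb and Il18r1, and the other neighbours were separate. With toyocamycin the order was Il1rl1 (18276 ± 666), Crlf2 (2382 ± 136), Il7r (2118 ± 46.5), Il18rap (1069 ± 39.8), Il1r2 (579.7 ± 10.6), Il17ra (520 ± 33.2), Il17rb (88.8 ± 8.58), Il1rap (75.6 ± 1.98), Il18r1 (39.6 ± 5.18) and Il1r1 (5.79 ± 1.50; SD, n = 3). No neighbouring ranges overlapped there. The scale uses all annotated exons, so a gene with long exons that these cells do not use appears lower than it is.

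**Figure D3:**
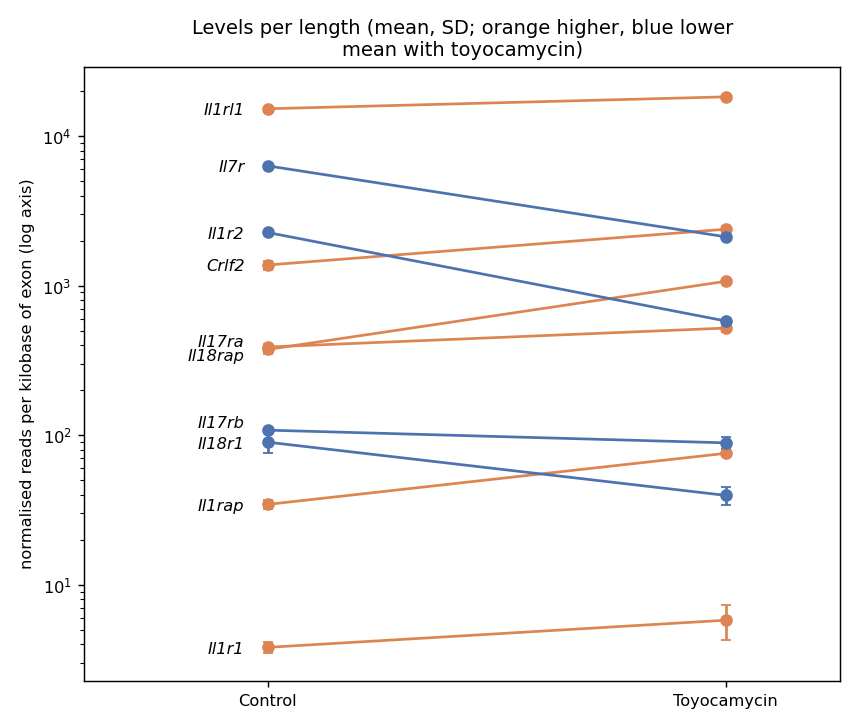
Normalised reads per kilobase of annotated exon (logarithmic axis) for each receptor gene in Control and toyocamycin; points are group means, error bars are the SD (n = 3), and orange or blue lines mark a higher or lower mean with toyocamycin. Il1rl1 leads in both groups at 15214 and 18276, Crlf2 and Il7r change places, and Il1r1 is last in both.

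Reads of the 10 receptor genes made up 0.631% ± 0.0083 of all reads in Control and 0.514% ± 0.0030 in toyocamycin (SD, n = 3 each). Their sum in normalised reads was 147872 ± 3413 in Control and 153677 ± 5467 in toyocamycin. The direction of their summed level thus depends on the scaling. Within them the Il1rl1 share was 70.9% ± 0.28 in Control and 82.0% ± 0.31 in toyocamycin. The Il7r share was 19.9% ± 0.24 and 6.43% ± 0.10 (SD, n = 3). Il18rap made up 1.71% in Control and 4.696% in toyocamycin, and Il1r2 2.92% and 0.720%. The receptor RNA of the treated cells was thus made up more of Il1rl1 and Il18rap and less of Il7r and Il1r2.

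A cluster on chromosome 1 holds 5 of the genes within 477627 bases, all on the plus strand, in the order Il1r2, Il1r1, Il1rl1, Il18r1 and Il18rap. Only 136 bases separate the end of Il1rl1 from the start of Il18r1, and 14507 bases lie between Il18r1 and Il18rap. These neighbours did not move together: Il1r2 and Il18r1 fell, Il18rap rose, and Il1rl1 changed little, with a direction that depends on the scaling. Of 6 other genes within or beside the cluster, among them Il1rl2 between Il1r1 and Il1rl1, 4 were tested and 1 was called in each direction. The median log2 change of these 4 was −0.57, against −0.03 over all genes, of which 32.8% were called higher and 33.1% lower. Map4k4, a kinase gene next to Il1r2, rose from 6803 to 15139 normalised reads, 2.23-fold (log2 change 1.15, limma adjusted p = 3.16e-14). Mfsd9, a transporter-family gene, was 96.5 in Control and 63.5 in toyocamycin, a weak call (−0.58, limma adjusted p = 0.046) that was lost under 10 of 16 alternatives.

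**Figure D4:**
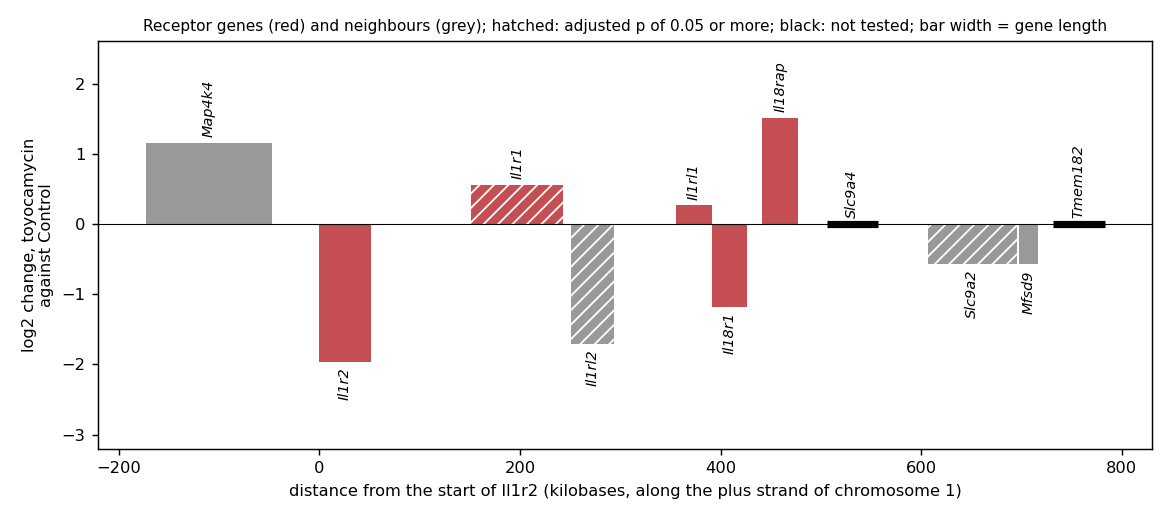
Log2 change of toyocamycin against Control (vertical axis) for the receptor genes and their neighbours, placed by distance from the start of Il1r2 in kilobases; bar width is gene length, hatched bars did not pass the test and black marks were not tested. Il1rl1 (0.26), Il18r1 (−1.18) and Il18rap (1.52) lie side by side with changes of different sign.

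Among 8 related receptor genes, 6 were tested, of which 1 rose and 2 fell, against 32.8% called higher and 33.1% lower over all genes. The median log2 change was −0.64, against −0.03 over all genes, and −0.92 with the same calls in number under equal totals. Only 4 of the 8 were detected at 3 reads or more in all samples of a group. The median rests in part on Il17re, at 2.36 in Control and 1.45 in toyocamycin, under the 3-read level. Sigirr, a TIR-domain protein that dampens IL-33 and IL-18 receptor signalling, fell from 626.4 ± 41.4 to 237.2 ± 37.3 normalised reads (SD, n = 3 each), 2.64-fold (log2 change −1.41, limma adjusted p = 1.14e-09). Il2rg, the common gamma chain that pairs with the Il7r product to bind IL-7, fell from 13854 ± 378 to 8718 ± 556 (−0.67, limma adjusted p = 3.11e-10). Both chains of the IL-7 receptor were therefore lower with toyocamycin. Il17rd, a further receptor of the IL-17 family, rose from 87.5 to 183.5 (1.09, limma adjusted p = 0.000137).

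Of 16 genes for ligands and soluble inhibitors, 10 were tested, with 2 higher, 3 lower and 5 that did not pass the test. The median log2 change was −0.35, against −0.03 over all genes, of which 32.8% were called higher and 33.1% lower. Only 6 of the 16 were detected at 3 reads or more in all samples of a group. The median lies between 2 genes with few reads that were not called. These were Tslp (1.19 in Control and 0.88 in toyocamycin) and Il1b (5.65 and 3.35). With equal totals 1 was higher and 3 were lower (median −0.54). Il25 had no read in any sample, and Il33 had 34.5 ± 10.3 normalised reads in Control and 16.0 ± 2.45 in toyocamycin, a call at limma adjusted p = 0.0367 that was lost under 6 of 16 alternatives. Il18bp, which binds and blocks IL-18, was at 116.6 in Control and 171.9 in toyocamycin (0.56, limma adjusted p = 0.00839), a call that ended with equal totals (0.21). Il17a rose from 79.5 to 142.8 (0.84, adjusted p = 0.00105), whereas Il17f, its relative, fell from 452 to 327 (−0.46, adjusted p = 0.00117; −0.12 and not called with quantile normalisation). The remaining call was Il7, at 6.20 in Control and 0.88 in toyocamycin, of which the latter is under the 3-read level, and the call was lost under 5 of the 14 alternatives that tested it.

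Downstream of the IL-33, IL-18 and IL-1 receptors, all 11 adaptor and kinase genes were tested, and 6 rose and 4 fell (median log2 change 0.58, against −0.03 over all genes, of which 32.8% were called higher and 33.1% lower). Under equal totals the calls were 6 higher and 5 lower (median 0.23). Tab2 rose from 7071 ± 170.5 to 37165 ± 1943 normalised reads (SD, n = 3 each), 5.26-fold (log2 change 2.39, limma adjusted p = 4.84e-19), and Tab3 rose 4.78-fold (2.25, adjusted p = 6.83e-18). Both encode proteins that tie TRAF6 to the kinase TAK1. Tollip, an inhibitor of IRAK1, rose 3.02-fold. The IRAK kinase genes did not all move the same way. Irak1 fell from 2609 to 568.5 (4.59-fold, −2.20, limma adjusted p = 2.47e-16) and Irak4 from 887.5 to 269.7 (3.29-fold, −1.72, limma adjusted p = 4.28e-12). Irak3 fell less (−0.26), whereas Irak2 rose from 2140 to 3189 (0.58, limma adjusted p = 1.09e-08). Irak2 and Irak3 were named after their values were seen. Tab1, another TAK1 partner, was called lower (−0.40, limma adjusted p = 0.00296), but its sign turned with a correction for GC content and length (0.14). Myd88, named after its values were seen because it was the only gene of the list that did not pass, had 2263 normalised reads in Control and 2135 in toyocamycin (−0.08, limma adjusted p = 0.271), and with equal totals it was called lower (−0.43).

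Of 6 adaptor genes of the IL-17 receptor family, 4 rose and 2 fell (median log2 change 0.46, against −0.03 over all genes, of which 32.8% were called higher and 33.1% lower). Under equal totals the calls were 3 higher and 3 lower (median 0.11), as Traf2, the gene that turned, went from 0.15 to −0.20. Traf6 is in this list and in the preceding one. Traf6, an E3 ligase shared by the IL-25 and IL-33 pathways, rose from 1806 to 4433 normalised reads (2.45-fold, limma adjusted p = 7.71e-14). Traf4 rose 2.10-fold and Traf3 1.70-fold; both products are known to limit IL-17A signalling. Traf3ip2, which encodes Act1, fell from 1914 to 1374 (−0.48, limma adjusted p = 4.73e-06), a call that ended with the correction for GC content and length (−0.16, limma adjusted p = 0.0628). Traf5 was at 124.9 in Control and 81.9 in toyocamycin, a call (limma adjusted p = 0.0429) lost under 6 of 16 alternatives.

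Of 5 kinase and STAT genes that act behind the TSLP receptor, 4 rose and 1 fell (median log2 change 0.54, against −0.03 over all genes, of which 32.8% were called higher and 33.1% lower). Under equal totals the calls were 3 higher and 2 lower (median 0.19), as Stat3, the gene that turned, went from 0.13 to −0.22. Jak1 rose from 15363 to 32976 normalised reads (2.15-fold, limma adjusted p = 2.06e-14) and Jak2 rose 1.56-fold. Stat5b rose from 3813 to 5535 (0.54; 0.04 and not called with quantile normalisation), whereas Stat5a, its close paralogue, fell from 1703 to 1215 (−0.49, limma adjusted p = 1.05e-06). The paralogues share sequence, and the sources used here do not say how reads matching both were counted. With the correction for GC content and length the Stat5a change was 0.003. Jak1 and Jak2 thus rose in the samples in which Crlf2 rose and Il7r fell.

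The genes whose profile over the 6 samples was most like that of a ligand-specific chain, among 9914 genes with a mean of at least 100 normalised reads, were Chmp1b (Pearson r = 0.9989), Smarcd1 (0.9986) and Tgs1 (0.998) for Il1rl1. For Il17rb they were Prmt3 (0.9995), Irf9 (0.991) and Rfesd (0.9904), and for Crlf2 they were Arglu1 (0.9997), Psmb7 (0.9996) and Btf3 (0.9995). These correlations mainly carry the difference between the groups, so many genes reach them: r was over 0.95 for 3455 genes with Il1rl1, 3550 with Crlf2 and 173 with Il17rb.

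Because the treated libraries sum to 29.1 to 31.1 M normalised reads against 23.1 to 23.7 M in Control, the scaling decides the small changes. With equal totals 3 of the receptor genes were called higher (Il1rap, Crlf2 and Il18rap), against 24.9% of all genes tested. Under that scaling 5 were called lower (Il1rl1, Il17rb, Il7r, Il18r1 and Il1r2), against 42.5% of all genes, and the median was −0.007 over the receptor genes. Il1rap, Crlf2, Il18rap, Il7r, Il18r1 and Il1r2 kept their direction and call under all 16 alternatives, whereas those of Il1rl1, Il17rb and Il17ra did not.

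**Figure D5:**
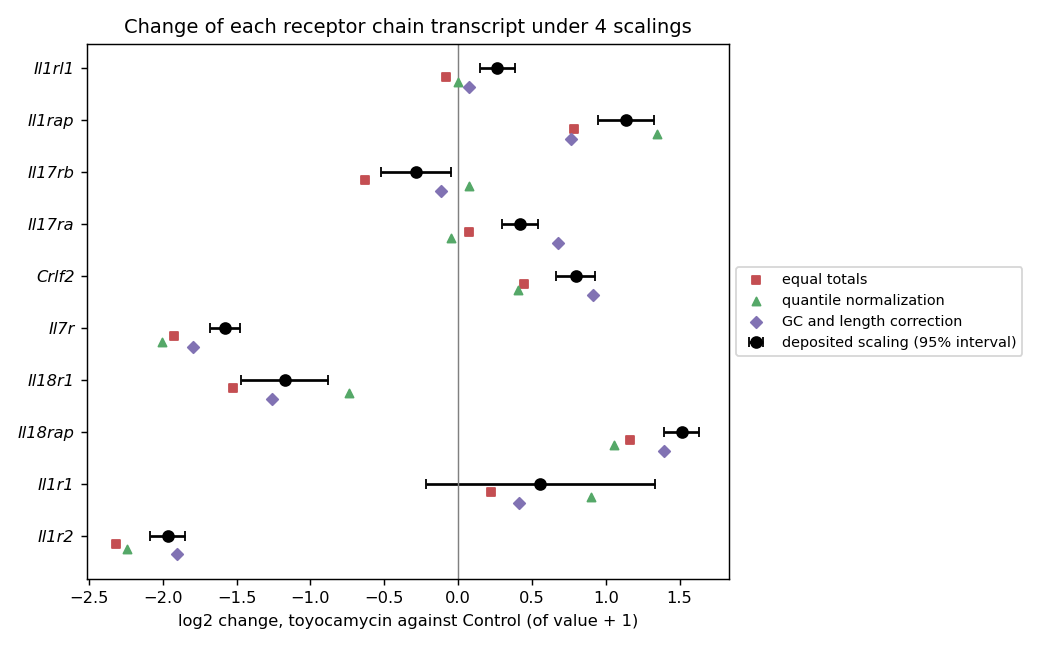
Log2 change of toyocamycin against Control (horizontal axis) for each receptor gene under the deposited scaling (black, with 95% interval), equal totals, quantile normalisation and the correction for GC content and length. Il7r and Il1r2 stay far under 0 and Il18rap and Il1rap far above it, whereas Il17rb and Il17ra lie on different sides of 0 in different scalings and Il1rl1 lies under 0 with equal totals.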

How the data were processed

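Bulk RNA was sequenced in 6 samples, 3 Control and 3 toyocamycin, grouped by the treatment label. Per the labels' protocols, RNA was extracted with TRIzol and libraries followed a standard Illumina protocol. Per the submitters' processing notes, cutadapt 4.7, FastQC and the genome build mm10 were used. The sources used here name no aligner, counting program or strand setting. Although the table that the authors deposited carries FPKM in its name, it holds a normalised signal: in each sample 100% of them are whole multiples of 1 step (tolerance 0.01 reads), the same for short and long genes. They were read as counts divided by a size factor of 0.7572 to 1.1808, and whole reads were recovered from them.

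Values were analysed as log2(value + 1) for genes with a mean of at least 1 (16223 genes). The two-sided test was limma-trend (limma 3.58.1 under R 4.3.3), with p-values adjusted by Benjamini-Hochberg and called at 0.05. It was tried on simulated data in which far fewer genes changed than here, evenly up and down. That trial therefore cannot decide between the scalings. A log2 change on this scale understates that of low genes. Folds are ratios of group means. Alternatives were edgeR 4.0.16 and DESeq2 1.42.0 on the recovered reads, equal totals, quantile normalisation, pseudocounts of 0.5 and 10, no filter, a mean of at least 10, a correction for GC content and exon length, a replicate block, and leaving out each sample. Lengths, GC content and positions come from GENCODE M21 (GRCm38), matched by symbol for 15595 of 16223 genes tested (96.1%).

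The receptor genes and gene lists were chosen with earlier results of these data known. Named from each pathway list were up to 3 called genes with the largest change in each direction. All replicates were kept, since each pair within a group differed beyond counting error (3.96 to 7.76 as chi-square per degree of freedom). The floor of 3 reads covers counting error only.

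Marker lists of other cells not given with the results summed as follows, in Control and then toyocamycin, with the number of genes detected. ILC3 markers (4 of 6) summed to 208.9 to 235.6 and 177 to 207.6, and NK and ILC1 markers (2 of 8, led by Gzma) to 7258 to 7652 and 9534 to 10890. B-cell markers (3 of 6) summed to 367 to 469.6 and 187.2 to 223.2, and myeloid markers (5 of 7) to 885.5 to 1310.2 and 1073 to 1561. Epithelial markers (4 of 7) summed to 192.2 to 248.3 and 196.8 to 217.3, and stromal markers (7 of 7, led by Pecam1) to 1309 to 1557 and 749.5 to 1008. Their part in the receptor values was not tested.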

Additional observations from a re-analysis of the deposited data

How the results depend on the processing

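Depth limits Il1r1, which rested on 24 to 40 reads per library. Of the recomputed values that answer a comparison, 249 kept their direction and, where they have a call, the call, while 10 lost a call, 1 gained one, 3 turned sign and 3 moved; the chain ratios among them have no call and were recomputed with the other pseudocounts and without each sample. For other named genes 536 values were kept, 5 turned sign and 33 lost a call, mainly of Mfsd9, Il33, Traf5 and Il7. Il7 has no value with edgeR or with the filter at a mean of 10. With equal totals 3 receptor genes were called higher in place of 5, Il1rl1 turned to −0.085, Il17ra was 0.070, and Chmp1b turned to −0.079. With quantile normalisation Il1rl1 was 0.000, because it ranked 6th by reads in every sample, Il17rb turned to 0.073, Il17ra to −0.046 and Chmp1b to −0.122, and Il1r1 passed the threshold at 0.898. With the correction for GC content and length, which moved the median of all genes from −0.026 to 0.081, Il1rl1 was 0.073 and Il17rb −0.115, neither called, and Tab1 turned to 0.143, Stat5a to 0.003 and Chmp1b to −0.009. With DESeq2 Il17rb was −0.272 and not called. Leaving out each sample in turn gave −0.363 to −0.238 for Il17rb, which lost its call without any 1 of the Control samples or without toyocamycin replicate 1 or 3. Without mitochondrial and ribosomal RNA the receptor genes made up 0.652% of reads in Control and 0.542% in toyocamycin. Except where the construction is named, the cause was not tested.

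Replicate numbers gave no sign of pairing: deviations from the group means correlated at −0.043, 0.068 and −0.139 between same-numbered samples (9914 genes), and only for number 2 was the same number among the best match. With the replicate number as a block, 5 receptor genes were called higher and 4 lower as before, Il17rb was −0.285 (limma adjusted p = 0.0409), and 5272 genes were called higher and 5298 lower over the table.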

Other observations

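The antisense transcript Gm16894 lies opposite Il1r2 and was looked at after the values were seen. It shares no exon base with Il1r2. It had 61.5 ± 10.5 normalised reads in Control and 5.41 ± 3.54 in toyocamycin (SD, n = 3 each; log2 change −3.49, SE 0.52, limma adjusted p = 4.47e-06), lower together with Il1r2. The treated level of Gm16894 is near the 3-read level. The sources used here do not say whether counting used strand, and the part of Il1r2 reads in the Gm16894 value was not tested. Il1rap also has an antisense neighbour, Gm20319, which was under 3 reads on average in both groups.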
